A study of Mus musculus with 4 samples.

Results

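The genes described are Pon1, Cltrn, Slc6a20a, Kcnj13, Car12, Ermn, Best1 and Trpm3, a set of secreted, transporter, channel and membrane-linked genes. They were grouped under the label of pigment epithelium type, which was not tested and does not hold for each gene. Pon1 is best known from the liver and Ermn from oligodendrocytes. All 8 were listed by name because several of them were higher after UVB on these same arrays. Their differences between UVB-irradiated and control lens epithelia thus chose them and are given as descriptions without a test. All 8 were measured, out of 19938 genes to which at least 1 probe set was annotated without sharing, and each of the 8 had 1 such probe set. Lens epithelia came from 8-week-old C57BL/6 male mice, whose right eyes were exposed to UVB at 30 mJ/cm2 under anesthesia and whose left eyes were shielded by aluminum foil and served as the control. Tissue was taken at 24 h. Each of the 2 independent experiments gave 1 control array and 1 UVB array, so each group had 2 arrays (n = 2). Both groups were thus mice of 1 strain, age and sex, and they differed in whether the eye was covered. The methods name no transgene or other genotype beyond the strain. Whether the mice of an experiment were pooled on its arrays is not stated, so the spread between arrays may be partly technical.

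A transporting epithelium moves ions, acid and nutrients between compartments, and its channels and carriers are sorted to the apical or the basolateral membrane. The retinal pigment epithelium lies behind the photoreceptors, recycles their retinoids and clears fluid and lactate, and the choroid plexus and ciliary epithelium secrete cerebrospinal fluid and aqueous humor with related sets of genes. The lens epithelium is a single layer of cells on the front of the lens that feeds the growth of lens fibers. In this tissue the crystallin genes and regulators such as Pax6 and Foxe3 are the defining genes. All 8 measured markers of the lens epithelium gave log2 signals between 9.54 and 13.82 on the 4 arrays, and the 9 measured lens fiber markers had median signals between 13.08 and 13.20. Genes of the labelled tissue thus gave signals above the array median on every array. Fiber genes did so too, although the methods state that lens cortex and nucleus were removed. The part of fiber RNA on the arrays was not tested.

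Promoter sequences are shown for the 4 genes whose windows held one of the motifs searched, so that the letters can be read beside the expression values. They are RefSeq sequences of the mouse assembly GRCm38.p6, written 5′ to 3′ on the strand of the gene. The array files give no genome build. Each stretch holds the 250 bases before the annotated start, and that of Cltrn runs 2 bases past it because a motif crosses the start. Capitals mark TAATCC or its reverse complement, the core bound by bicoid-type homeodomain factors such as Otx2 and Crx, in the Pon1, Cltrn and Best1 stretches. In the Kcnj13 stretch they mark the reverse complement of CATGTG, the M-box core bound by Mitf. The stretches lie at chr6:5193947-5194196 on the minus strand for Pon1, chrX:164089937-164090188 on the plus strand for Cltrn, chr19:10001634-10001883 on the minus strand for Best1 and chr1:87394730-87394979 on the minus strand for Kcnj13.
Pon1: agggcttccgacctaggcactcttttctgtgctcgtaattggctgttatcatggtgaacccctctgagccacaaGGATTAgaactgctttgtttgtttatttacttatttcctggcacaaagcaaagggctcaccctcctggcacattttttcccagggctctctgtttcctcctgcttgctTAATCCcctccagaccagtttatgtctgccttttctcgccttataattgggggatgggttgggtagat
Cltrn: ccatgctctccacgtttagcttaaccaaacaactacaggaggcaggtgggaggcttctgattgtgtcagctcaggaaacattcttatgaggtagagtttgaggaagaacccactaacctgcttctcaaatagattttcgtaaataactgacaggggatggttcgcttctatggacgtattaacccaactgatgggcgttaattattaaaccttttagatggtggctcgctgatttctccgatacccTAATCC
Best1: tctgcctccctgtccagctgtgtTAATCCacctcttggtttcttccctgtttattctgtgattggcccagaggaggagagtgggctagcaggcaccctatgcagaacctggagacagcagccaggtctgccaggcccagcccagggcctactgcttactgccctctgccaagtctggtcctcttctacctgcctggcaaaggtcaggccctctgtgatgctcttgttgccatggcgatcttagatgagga
Kcnj13: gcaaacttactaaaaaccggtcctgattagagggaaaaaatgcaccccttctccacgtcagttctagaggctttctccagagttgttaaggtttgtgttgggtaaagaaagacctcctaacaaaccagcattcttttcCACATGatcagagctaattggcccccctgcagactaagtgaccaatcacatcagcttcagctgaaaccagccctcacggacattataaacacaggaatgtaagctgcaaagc

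Windows of 250 bases before to 50 bases after each start were searched on both strands, 10 windows for the 8 genes, since Cltrn and Trpm3 have more than 1 annotated start. TAATCC occurred in 3 of these 10 windows, which belong to 3 of the 8 genes, and in 7.06% of all 32851 windows. Pon1 held it 2 times, 68 bases before the start on the gene's strand and 176 bases before it on the other strand. Best1 held it 227 bases before the start. Cltrn held it across the start, beginning 4 bases before it, and again 41 bases after it on the other strand. CATGTG occurred in 14.2% of all windows, 112 bases before the start of Kcnj13 on the other strand and in the window of the second Cltrn start, where matches on both strands overlap 163 and 165 bases before it. The E-box core CACGTG, present in 7.15% of all windows, and the AP-1 core TGACTCA, present in 5.20%, were in 0 windows of the 8 genes. The windows of Slc6a20a, Car12, Ermn and Trpm3 held none of the 4 motifs. A match is a description of the letters and not a binding site, and a missing match says only that the letters are not in the window.

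Values are log2 signals of probe sets, on which a difference of 1 is a doubling of signal. In every probe set the summed signals of experiment 1 and experiment 2 were equal within 0.02, so the experiments had been brought to 1 common mean before deposit. As a result the SD of the control arrays and the SD of the UVB arrays repeat the gap between the experiments, and a gene higher after UVB in both experiments cannot overlap between the groups. For the same reason the gap between the nearest arrays of the 2 groups restates the smaller of the 2 differences and adds nothing to it. The 4 arrays had median log2 signals of 7.19 to 7.22, and the median UVB minus control difference over all 28944 probe sets was −0.02. Signals of different probe sets are not comparable, so the genes are not ranked by level. Still, 5 of the genes, Pon1, Cltrn, Car12, Ermn and Best1, lay below the array median on both control arrays. Their control signals stood at percentiles from 15.4 (Ermn, experiment 1) to 32.9 (Car12, experiment 2). Whether these signals lay above background was not tested, so the expression of these genes in control epithelium and their fold values are uncertain. In whole tissue, RNA of more cells of a type and more RNA per cell cannot be told apart.

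After UVB, 7 of the 8 genes had the higher signal in both experiments alike, and the mean UVB minus control difference ran from −0.01 for Trpm3 to 1.47 for Pon1, with a median of 0.86 on the log2 scale. In all, 5 genes, Pon1, Cltrn, Kcnj13, Car12 and Slc6a20a, passed 1.8-fold in the mean, the fold used in the study's methods, and Pon1 was the only one of the 8 to pass it in each experiment. Among all probe sets, 0.176% passed 1.8-fold upward in the mean and 0.0345% in each experiment. Both UVB arrays lay above both control arrays in 7 of the 8 genes and in 24% of all probe sets. The limma fit with the experiment as a block called 18 probe sets higher at 1.8-fold and an unadjusted p of 0.01, 0.0622% of all, and 0 lower, 0.0%. Pon1 was the 1 gene of the 8 among them. These shares stand beside the counts for scale only, since the genes were chosen from this same contrast. With the block, 3878 of all 28944 probe sets had an unadjusted p under 0.05, higher and lower together. The counts at this p given below for the lists are to be read beside that share. At an adjusted p of 0.05 limma called 0 probe sets with the block, and the lowest adjusted p was 0.357. With a robust prior limma called 109 at that adjusted p, and without the block 1915 higher and 3184 lower. An exact two-sided permutation test of 2 arrays against 2 that ignores the pairing cannot give a p below 0.333. Swapping labels only within the pairs allows fewer arrangements, so its limit is higher still.

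**Figure D1:**
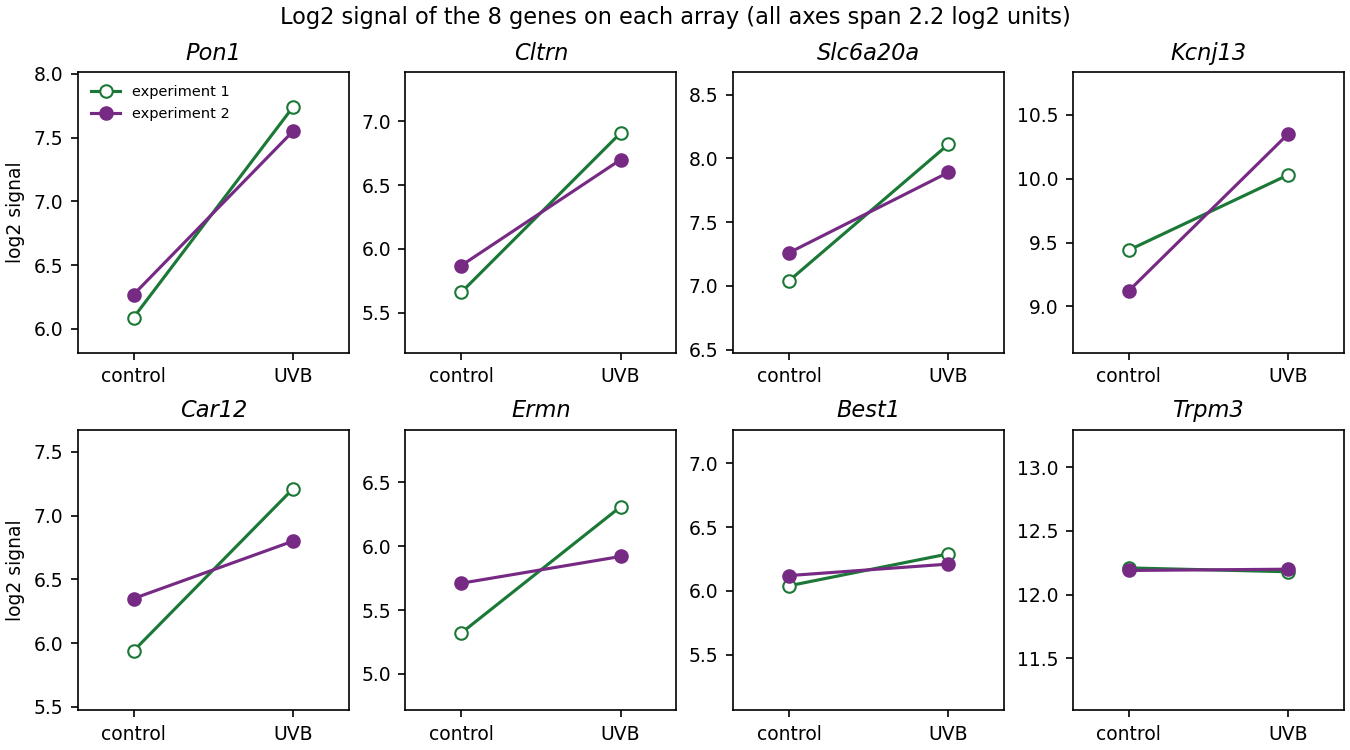
Log2 signal (vertical axes, each spanning 2.2 log2 units) of the 8 genes on the control and UVB arrays. Open green circles are experiment 1 and filled purple circles experiment 2, lines join the arrays of 1 experiment, and there are no error bars because each point is 1 array. The lines of Pon1 climb from 6.09 and 6.27 to 7.74 and 7.55, whereas those of Trpm3 stay between 12.18 and 12.21.

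Pon1 encodes paraoxonase 1, a secreted lactonase and esterase that travels on high density lipoprotein and is best known as a product of the liver. Its log2 signal was 6.09 and 6.27 in the control arrays of experiments 1 and 2 and 7.74 and 7.55 in the UVB arrays. The lowest UVB signal was 1.28 above the highest control signal, the widest separation among the 8 genes and the same value as the difference in experiment 2. The control mean was 6.18 ± 0.127 and the UVB mean 7.64 ± 0.134 (SD, n = 2). Pon1 was 3.14-fold higher in experiment 1 and 2.43-fold in experiment 2, 2.76-fold in the mean (log2 1.47 ± 0.262, SD over the 2 experiments), and only 3 of the 19938 genes had a larger mean difference. The gene lies at chr6:5168090-5193987 (GRCm38.p6). Its relatives Pon2 and Pon3, an intracellular and a lipoprotein-bound lactonase, had mean differences of −0.06 and 0.06. Pon2 read 11.06 on both control arrays and 11.00 on both UVB arrays, and Pon3 differed by 0.03 and 0.08.

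High density lipoprotein genes were listed as the setting in which Pon1 protein is carried. Of 11 measured, 0 were called higher or lower by limma with the block, 0 were called higher without it, and 1 had an unadjusted p under 0.05. The list's median difference was 0.02, against −0.02 over all probe sets. Pltp, which moves phospholipid between lipoproteins, had the largest difference, 0.95 and 0.62 in the 2 experiments. Apoe, a lipid carrier, differed by 0.22 and 0.72. The large difference of Pon1 therefore stood beside a list centred near the median of all probe sets.

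Cltrn encodes collectrin, a membrane protein that carries amino acid transporters to the brush border of the kidney tubule. Its signal was 5.66 and 5.87 in control and 6.91 and 6.70 in UVB arrays. Every UVB value lay above every control value, by at least 0.83, which is the difference in experiment 2 over again. Cltrn was 2.38-fold higher in experiment 1 and 1.78-fold in experiment 2, so that the second value fell just short of 1.8-fold, and the mean was 2.06-fold (log2 1.04 ± 0.297). A larger mean difference was found in 13 genes. The gene lies at chrX:164090187-164118859.

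Slc6a20a encodes a sodium-dependent carrier of proline and related imino acids. Its signal was 7.04 and 7.26 in control and 8.11 and 7.89 in UVB arrays, without overlap. The gene was 2.1-fold higher in experiment 1 and 1.55-fold in experiment 2, and its mean of 1.8-fold (log2 0.85 ± 0.311) sat at the fold threshold, 0.848 in log2. It lies at chr9:123636907-123678832. The paralog Slc6a20b differed by 0.09 and 0.03, and the other 4 measured carriers of this branch of the Slc6 family had mean differences between −0.08 and 0.14. Slc6a18 and Slc6a19, the neutral amino acid carriers that collectrin serves in the kidney, differed by −0.02 and −0.07 in the mean.

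The wider list of amino acid transport genes held 12 measured genes. By limma with the block 0 of them were called in either direction, and 1 was higher and 1 lower at an unadjusted p under 0.05. The median difference was −0.01. The largest in size were Slc3a1, the heavy chain of the cystine and dibasic amino acid carrier, at −0.23, and its partner Slc7a9 at −0.20. Slc6a20a and Cltrn were therefore higher after UVB on arrays on which the 12 genes of this list stayed within 0.23 of no difference in the mean. In single experiments the gap was wider, as for Slc3a1 at −0.31 in experiment 2.

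**Figure D2:**
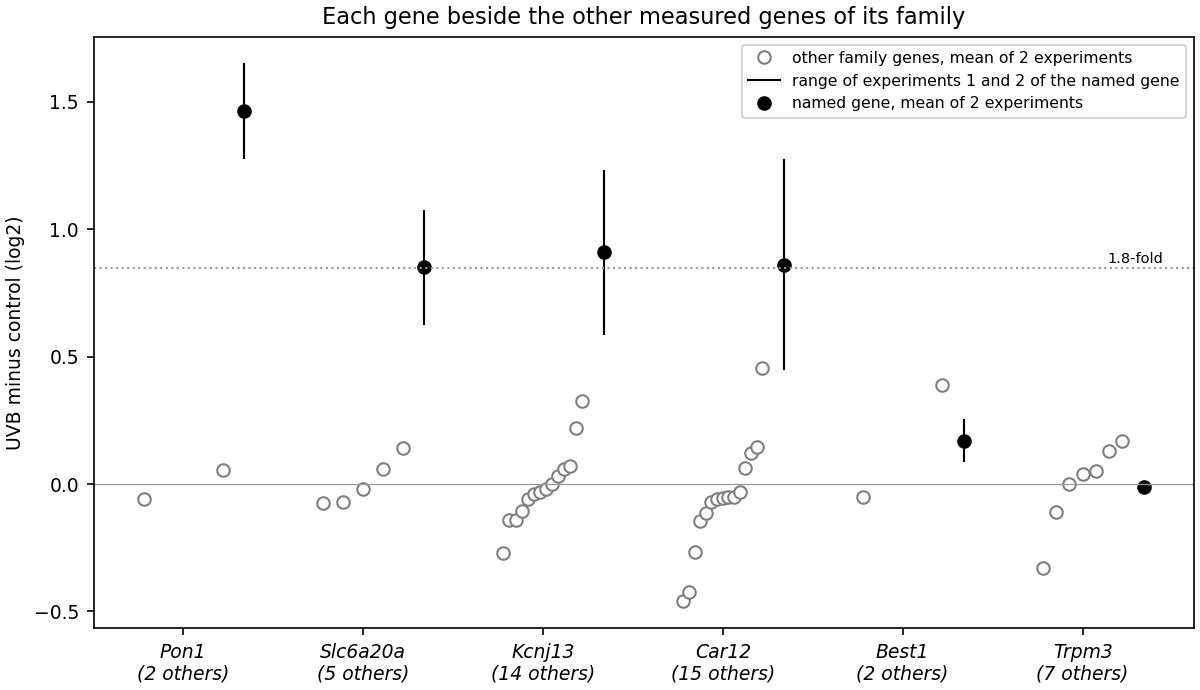
Mean UVB minus control difference (log2, vertical axis) of 6 of the 8 genes (filled points, bars spanning the values of experiments 1 and 2) beside the other measured genes of the same family (open circles, means of 2 experiments). Pon1, Slc6a20a, Kcnj13 and Car12 stand above every relative, whereas Best1 lies below Best2 and Trpm3 lies among the other Trpm genes. The 8 genes were listed because several rose in this contrast and the relatives by family, so such a gap was built into the choice.

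Kcnj13 encodes Kir7.1, the inwardly rectifying potassium channel of the apical membrane of the retinal pigment epithelium and choroid plexus. Its signal was 9.44 and 9.12 in control and 10.03 and 10.35 in UVB arrays. The groups did not overlap, but the order of the experiments was the reverse of that of the genes above. Kcnj13 was 1.51-fold higher in experiment 1 and 2.35-fold in experiment 2, 1.88-fold in the mean (log2 0.91 ± 0.453). The other 14 measured Kcnj genes had mean differences between −0.27 for Kcnj5 and 0.33 for Kcnj3, a subunit of G protein-gated channels. The promoter stretch of Kcnj13 printed above was the only one of the 4 to hold the M-box core. The gene lies at chr1:87384577-87394729, within the span of Gigyf2 at chr1:87326931-87450810. Gigyf2 had signals of 9.43 and 9.46 in control and 9.42 and 9.40 in UVB arrays, so the difference of Kcnj13 did not appear in the gene that surrounds it.

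Best1 and Trpm3, the other ion channels, differed little. Best1 encodes bestrophin 1, a calcium-activated chloride channel of the basolateral membrane of the pigment epithelium. Its signal was 6.04 and 6.12 in control and 6.29 and 6.21 in UVB arrays, a separation of 0.09 between the nearest arrays, and the mean was 1.13-fold (log2 0.17 ± 0.113). A larger mean difference was found in 1211 genes. Best2, the bestrophin of the ciliary epithelium, differed by 0.19 and 0.59, and Best3 by −0.05 in the mean. Best1 lies at chr19:9985172-10001633.

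Trpm3 encodes a cation channel that is opened by heat and by steroids such as pregnenolone sulfate. Its signal was 12.21 and 12.19 in control and 12.18 and 12.20 in UVB arrays, so the groups overlapped, and the mean difference was −0.01 ± 0.028. Its sign was not settled, since the difference was −0.03 with arrays centred on the median and 0.01 with equal 75th percentiles. The other 7 Trpm genes lay between −0.33 for Trpm6, a magnesium channel, and 0.17 for Trpm8. Trpm3 spans chr19:22137797-22995410 and hosts the miR-204 gene, whose product is abundant in pigment epithelium. The mature miRNA, at chr19:22750610-22750631 on the plus strand in RefSeq, is shown because its locus has a probe set of its own, with the seed (bases 2 to 8) in capitals.
mmu-miR-204-5p: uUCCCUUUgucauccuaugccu
The probe set annotated to Mir204 read 9.01 and 8.97 in control and 9.08 and 9.12 in UVB arrays, a mean difference of 0.11. It was 0.07 in experiment 1 and 0.15 in experiment 2. An array of this kind does not separate the mature miRNA from its precursor or host transcript.

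Car12 encodes a carbonic anhydrase anchored in the membrane with its active site outside the cell. Its signal was 5.94 and 6.35 in control and 7.21 and 6.80 in UVB arrays. The groups were 0.45 apart at the nearest arrays, and the experiments differed widely, 2.41-fold in experiment 1 and 1.37-fold in experiment 2 (mean 1.82-fold, log2 0.86 ± 0.580). The gene lies at chr9:66712296-66766845. Of the other 15 measured carbonic anhydrases and related genes, Car9, the other tumor-associated membrane form, had the lowest mean difference at −0.46 (−0.58 and −0.34), and Car10, a family member without enzyme activity, the highest at 0.46 (0.52 and 0.39).

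Ermn encodes ermin, a cytoskeletal protein best known from myelinating oligodendrocytes. Its signal was 5.32 and 5.71 in control and 6.31 and 5.92 in UVB arrays, with the nearest arrays 0.21 apart. The difference was 1.99-fold in experiment 1 and 1.16-fold in experiment 2 (mean 1.52-fold, log2 0.60 ± 0.552), so most of it came from 1 experiment. The gene lies at chr2:58045115-58052864. Other oligodendrocyte genes were listed to set beside it. Of 9 measured, 0 were called higher by limma with or without the block, 0 were called lower with it, and 1 was lower at an unadjusted p under 0.05. Their mean differences ran from −0.19 for Mog, a myelin surface protein, to 0.15 for Myrf, a myelin regulator, and the list's median signal was 6.64 on both control arrays and 6.67 and 6.68 on the UVB arrays.

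Over the families together, 45 of 46 listed relatives were measured, and 0 were called higher or lower by limma with the block, against 3 higher and 5 lower at an unadjusted p under 0.05. Without the block 0 were called higher. Their median difference was −0.03, within a range of −0.46 to 0.46. The list of other transport and secretion genes of the pigment epithelium likewise centred near 0, but its largest differences exceeded those of the relatives. Of 21 measured, 0 were called by limma with the block, 0 were called higher without it, 4 were higher and 1 lower at an unadjusted p under 0.05, and the median was 0.01. Slc4a5, a sodium bicarbonate carrier, had the largest difference, 0.72 (0.55 and 0.89). Efemp1, a matrix protein secreted by the pigment epithelium, differed by 0.63 (0.26 and 0.99), more in experiment 2, as Kcnj13 did.

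Visual cycle and pigment epithelium identity genes had a list median of 0.86, the same to 2 decimals as that of the 8 genes. Both sets were chosen with earlier results of these data known, so this likeness is a description only. Of the list's 11 measured genes, 8 were higher at an unadjusted p under 0.05. By limma with the block 0 were called lower and 4 higher. These were Rpe65, the retinoid isomerase (1.88 and 1.56 in the 2 experiments), Ttr, a carrier of retinol-binding protein (1.57 and 1.66), Rgr, a retinal-binding opsin (1.74 and 1.40), and Otx2, a homeodomain regulator (0.84 and 0.98), each with an adjusted p of 0.357. Mitf, the M-box factor, differed by −0.06. Of 9 melanin synthesis genes 1 was called, Dct, a melanin-forming tautomerase (0.77 and 0.98). This call was lost when either array of experiment 2 was left out, and the list's median was 0.60, with 5 of the 9 higher at an unadjusted p under 0.05. Of 13 choroid plexus markers Ttr was the 1 gene called, and the median was 0.11. Of 7 ciliary body markers 0 were called by limma with the block, 0 were called higher without it, and 2 were higher and 1 lower at an unadjusted p under 0.05. The largest were Atp1b2, a sodium pump subunit (0.54 and 0.96), and Optc, a vitreous matrix protein (0.25 and 1.06).

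**Figure D3:**
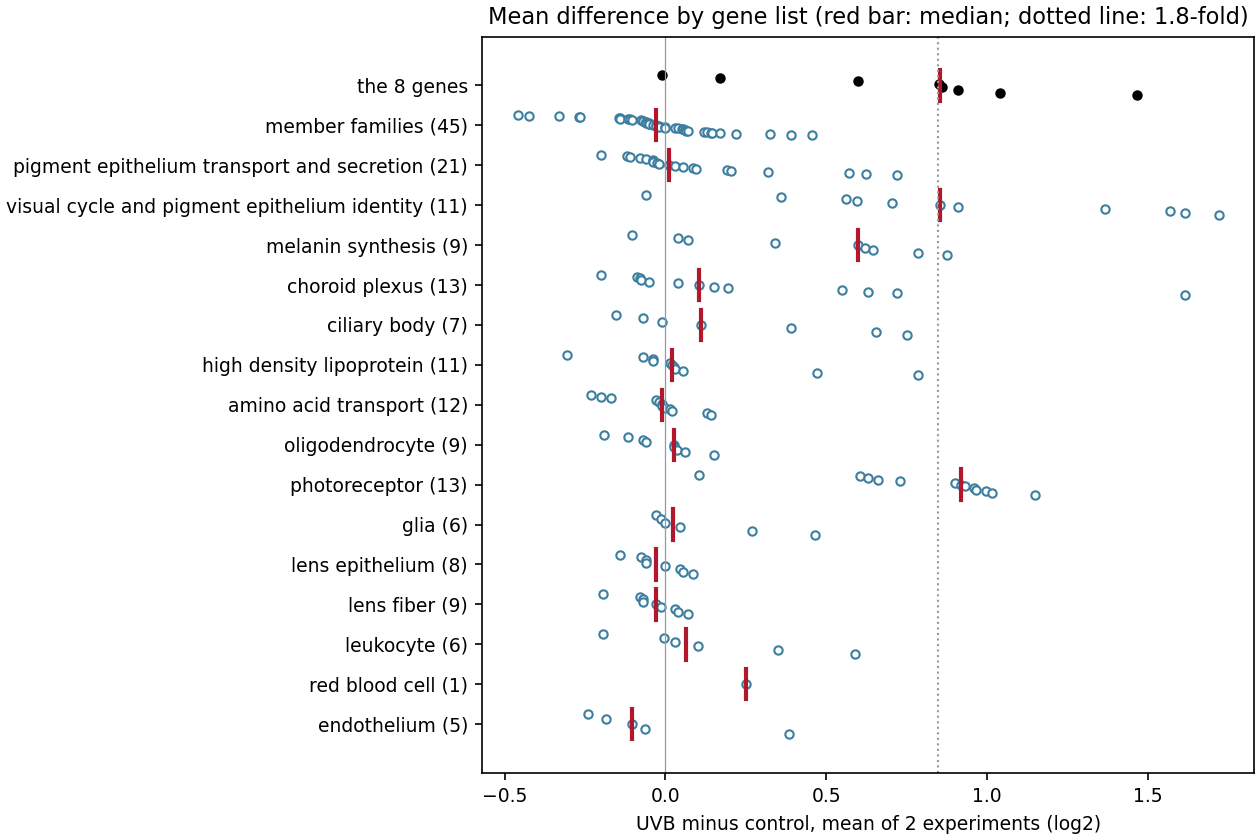
Mean UVB minus control difference (log2, horizontal axis) of the 8 genes (filled points) and of the genes of each comparison list (open circles, number measured in brackets; member families are the relatives of the 8 genes). Red bars are medians and the dotted line is 1.8-fold. The median bar of the 8 genes, 0.86, lies near those of the visual cycle list, 0.86, and the photoreceptor list, 0.92, whereas the relatives centre on −0.03. The 8 genes were listed because several rose in this contrast, and the relatives were listed by family.

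Markers of other cell types were read on the same arrays. All 13 measured photoreceptor markers were higher after UVB in both experiments. Their median signal was 8.93 and 8.77 in control and 9.70 and 9.84 in UVB arrays. Pde6b, a rod phosphodiesterase subunit (0.76 and 1.04), was the 1 called by limma with the block, and it was lost when any 1 array was left out. At an unadjusted p under 0.05, 11 of the 13 were higher and 0 lower, and 5 were called without the block. The probe sets shared by alpha or by beta globin genes, which mark red blood cells, were higher by 0.84 to 1.07 in the mean, more in experiment 1 (1.13 to 1.32) than in experiment 2 (0.55 to 0.82). Of the red cell markers, Alas2 alone had its own probe set and differed by 0.39 and 0.11. No marker read 0 on any array, but whether a signal lay above background was not tested, so this does not show that each cell type was present. Leukocyte markers (6 measured) had 0 calls by limma with the block, with 2 higher and 1 lower at an unadjusted p under 0.05 and a median of 0.07. Cd68 and Csf1r, of macrophages, differed by 0.59 and 0.35. Itgam and Aif1, also found in macrophages, did not follow them and differed by −0.20 and 0.03, Itgam being the 1 lower. Glial (6) and endothelial (5) markers had 0 calls and medians of 0.02 and −0.11, with 0 and 1 higher and 0 and 1 lower at an unadjusted p under 0.05. Among them Slc1a3 and Glul of glia differed by 0.47 and 0.27, and Kdr and Pecam1 of endothelium by 0.39 and −0.24. Lens epithelium (8) and lens fiber (9) markers had 0 calls, 1 lower in each at an unadjusted p under 0.05, and medians of −0.03 in each. Foxe3 and Six3 of the epithelium differed by −0.14 and 0.09, and Dnase2b and Bfsp2 of fibers by −0.20 and −0.08. The part of pigment epithelium, photoreceptor or blood cell RNA in the differences of Pon1, Cltrn and the other genes was not tested.

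The 8 genes did not vary alike across the experiments. Pon1, Cltrn, Slc6a20a, Car12, Ermn and Best1 had the larger difference in experiment 1, and Kcnj13 and Trpm3 in experiment 2. The median difference of the 8 was 1.03 in experiment 1 and 0.54 in experiment 2, whereas over all probe sets 50% were larger in experiment 1. Visual cycle genes were larger in experiment 1 in 7 of 11 cases (list medians 0.84 and 0.67), and photoreceptor markers were larger in experiment 2 in 12 of 13 (0.67 and 1.09). With 1 array per condition in each experiment, no gene's gap between the experiments could be tested.

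**Figure D4:**
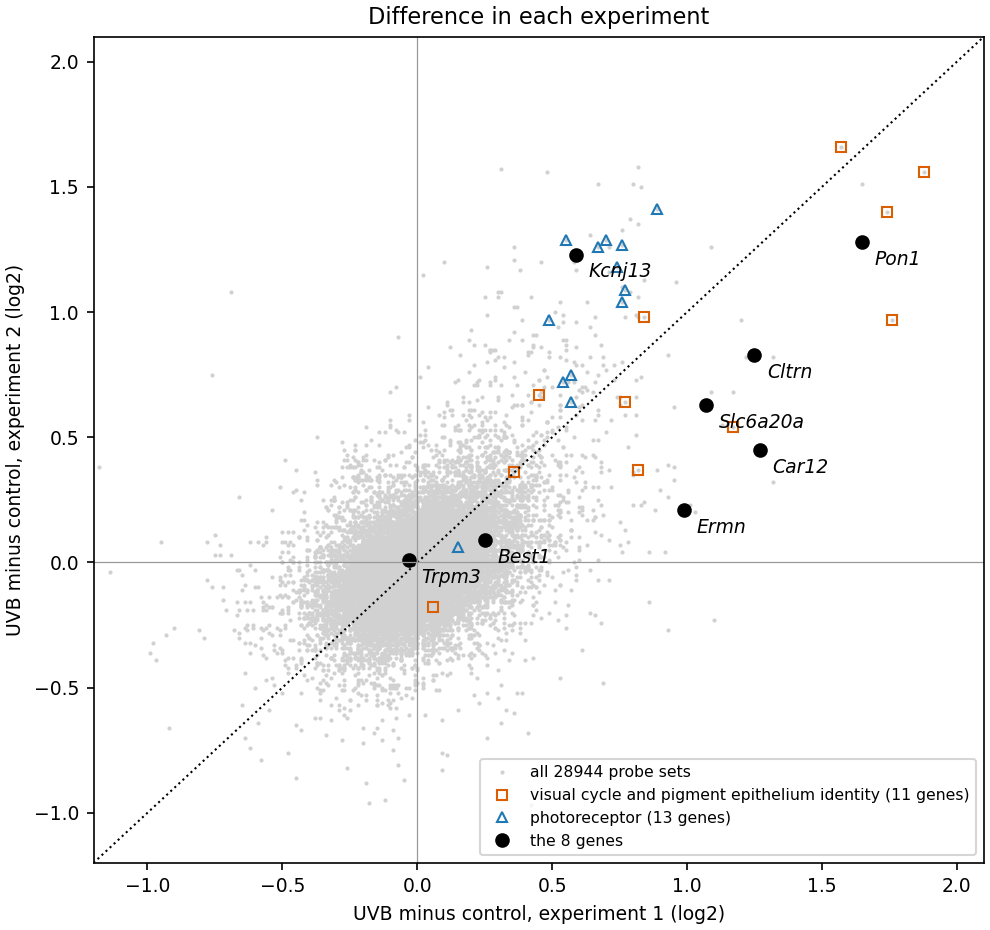
UVB minus control difference (log2) in experiment 1 (horizontal axis) and experiment 2 (vertical axis) for all 28944 probe sets (gray), the 8 genes (black), 11 visual cycle and pigment epithelium identity genes (orange squares) and 13 photoreceptor genes (blue triangles). On the dotted diagonal the experiments are equal. Kcnj13, at 0.59 and 1.23, sits above it with the photoreceptor genes, and Car12, at 1.27 and 0.45, sits below it.

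Likeness was measured as the Euclidean distance between the log2 differences of 2 genes over the 2 experiments, a description that rests on 2 points per gene and shared arrays. The same differences had chosen the 8 genes, so a near neighbor is not support for a shared role. Nearest to Pon1 were Rgr (distance 0.15), Lrat, which esterifies retinol (0.33), and Rpe65 (0.36). Only 3 genes had a larger mean difference than Pon1, so few genes could lie near it. Cltrn lay nearest to Trf, transferrin (0.15), then to Col8a1, a collagen (0.22), and to Slc6a20a (0.27). Slc6a20a in turn lay nearest to Col8a1 (0.05), Pltp (0.12) and Rdh5, a retinol dehydrogenase (0.14). Car12 had Rdh5 (0.14), Myl1, a muscle myosin light chain (0.14), and Slc6a20a (0.27) as neighbors. The genes nearest to Kcnj13 were Chil1, a secreted chitinase-like protein (0.03), Gnat1, the rod transducin (0.07), and Prph2, a disk rim protein of photoreceptors (0.09). Ermn lay nearest to Atp2a1, a muscle calcium pump (0.03), BC023105 (0.04) and Tshr, the thyrotropin receptor (0.08). Best1 shared its differences of 0.25 and 0.09 with Ccl19, Gm4787 and Epgn, and Trpm3 with 41 genes, none of which is named here.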

How the data were processed

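Expression in lens epithelium of exposed and covered eyes was measured on 4 Affymetrix gene arrays, 2 per group. The methods give 3 mice for animal experiments, done in duplicate, without saying how they map to arrays. The methods name a human array, whereas the probe sets carry mouse symbols. The authors deposited log2 signals of 28944 probe sets made with Affymetrix Expression Console. Its version and its settings for background and summarization were not found in the sources used here. By annotation, 21789 probe sets had 1 symbol, 1621 had several and 5534 had none. A gene with several single-symbol probe sets was given by the brightest. The deposited values had equal means in both experiments, a step that can narrow the spread between arrays and that no source used here describes.

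The experiment number came from the sample titles, in which the arrays of experiment 1 carry none. Since the exposed and covered eyes belonged to the same animals, per the methods, arrays of 1 experiment were paired. Paired arrays deviated from the means of their groups with a correlation of −0.998, which the equal experiment means produce. UVB was compared with control over all probe sets with two-sided tests in limma 3.58.1 (R 4.3.3), with the experiment as a block (1 residual degree of freedom, 2 without it) and Benjamini-Hochberg adjustment. Calls used 1.8-fold and an unadjusted p of 0.01. The fit was tested on simulated data. The 8 genes, the comparison lists and their rules were chosen with earlier results of these data known. The genes of each list named are those called, up to 4, or else the 2 with the largest difference, with all paraoxonases, bestrophins and the Slc6a20 pair, the genes at either end of larger families, and the 3 genes nearest to each of the 8. Itgam and Aif1 were named in addition.

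Alternatives were no block, an intensity trend or a robust prior, an equal-variance t-test (the methods name Student's or Welch's test for their general comparisons, and no test for the arrays), centring on the median, equal 75th percentiles, quantile normalization, probe sets above the median level or with 1 symbol, each array left out, 1.5-fold, and an adjusted p of 0.05. With the block, a p-value measures a difference against the disagreement of the 2 experiments, which limma moderates over all probe sets. Without it, and in the t-test, the spread between arrays of a group is used. The small number of arrays limits the precision of each. Promoter and miRNA sequences were taken from RefSeq (GRCm38.p6), in which all 8 genes matched.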

Additional observations from a re-analysis of the deposited data

How the results depend on the processing

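With 2 arrays per group, and experiment means that had been made equal, the counts of calls varied more between settings than the differences did. Against 18 probe sets called higher, limma gave 32 without the replicate block, 48 with a robust prior, 39 after quantile normalization, 64 at 1.5-fold and 0 at an adjusted p of 0.05. Against 0 lower it gave 5 at 1.5-fold. Of the 8 genes, 1 was called with the block, Pon1, 3 without it (Pon1, Cltrn and Slc6a20a), 2 after quantile normalization (Pon1 and Cltrn) and 4 with the robust prior (those 3 and Kcnj13). Restricting the fit to probe sets above the median level removed Pon1 from those tested. Without the block an adjusted p of 0.05 gave 1915 probe sets higher and 3184 lower, a fit that counts a degree of freedom too many here. An equal-variance t-test called 14 probe sets higher, among them Pon1 alone of the 8 genes, and of the lists 4 visual cycle genes, Ttr among them, and Dct. At an adjusted p of 0.05 it called 2650 probe sets in both directions together, also without pairing, and the robust prior called 109. Of the comparison list genes, 6 were called higher, 10 without the block, 15 with the robust prior and 13 after quantile normalization.

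Of the 8 genes, 5 passed 1.8-fold in the mean and 3 did after centring on the median, when Slc6a20a (0.83) and Car12 (0.84) fell short. After quantile normalization 4 passed, since Slc6a20a (0.839) fell short. Leaving out 1 array left 3 to 4. Without either array of experiment 1, Slc6a20a (0.74) and Car12 (0.66) fell short. Without either array of experiment 2, Kcnj13 (0.75) fell short. Other scalings moved the difference of each of the 8 genes by at most 0.02, which turns the sign of Trpm3. Of the 16 lists, 12 had 0 genes called higher in every fit run on them, which says little of stability. The photoreceptor list ranged from 0 to 8 genes called, the melanin list had 0 without either array of experiment 2, and the visual cycle list had 4 to 6. The cause was not tested. Each array left out was fitted without the block, so a lone array was assumed to vary like the other group.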
